A study of Homo sapiens with 12 samples.

Results

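The response of ALDH1+ cells of the human breast cancer line MDA-MB-468 to an inhibitor of the histone methyltransferase DOT1L was described across the transcriptome. The comparison sets 3 libraries of ALDH1+ cells kept in 0.5 µM EPZ5676 against 3 of ALDH1+ cells kept in the solvent DMSO. They are 6 of the 12 libraries of the study. They were chosen by their labels, and each EPZ5676 library was paired with the DMSO library of the same replicate number. The spread between libraries was estimated in 1 fit of all 12, which includes those of ALDH1- cells. Of 57783 genes in the deposited table, 16327 passed a filter on low counts (filterByExpr) and were tested. MDA-MB-468 is an established line of triple-negative breast cancer grown in medium with serum, and both groups are this 1 line, with no genetic change between them. Treatment lasted 10 days and came before the sort, in which fluorescence-activated cell sorting separated cells positive for ALDH1, a marker of aldehyde dehydrogenase activity, from negative ones. The replicates are called biological in the labels. How the sorting gate was set, and what share of cells it held in either treatment, is not given in the sources used here. Whether the drug changed gene expression within cells or changed which cells passed the gate cannot be told apart, and in a bulk library neither can fewer cells of a kind and less RNA per cell.

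DOT1L is the enzyme that methylates histone H3 at lysine 79 within the bodies of transcribed genes, and it works with AF9, AF10 and ENL, partners that also bind transcription elongation factors. EPZ5676, also known as pinometostat, occupies the pocket for S-adenosylmethionine, the methyl donor, so that the mark is lost slowly over several days as histones are replaced. Breast cancer cells with high aldehyde dehydrogenase activity are enriched for cells that start tumours when transplanted, and the activity in breast lines comes mainly from ALDH1A1 and ALDH1A3.

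The 6 libraries held 25441302 to 80195050 counts. EPZ5676 replicate 2 and DMSO replicate 3 (58004508 counts) were the deepest, and the level of 3 counts lay between 0.0374 and 0.118 CPM. CPM is the count per 1000000 counts of a library. Levels are given in CPM of the scaled library throughout, with replicates 1, 2 and 3 in that order. A gene was called when its adjusted p in the paired edgeR quasi-likelihood fit was under 0.05. The mRNA of DOT1L, the drug's target, stood at 75.7, 68.7 and 60.8 CPM in DMSO and 64.0, 63.9 and 62.0 CPM in EPZ5676. These ranges overlapped and the gene was not called (log2 fold change -0.11, SE 0.07, adjusted p = 0.25), and since the drug acts on the enzyme's activity, this level checks neither the labels nor the inhibition. The line's defining transcripts were present in every library: EGFR, amplified in this line, ranged from 4598 to 10750 CPM, and the basal keratin KRT5 from 2229 to 2620 CPM. ESR1 ranged from 6.83 to 8.64 CPM and SMAD4, lost in this line, from 0.437 to 0.708 CPM. Of 14 tested identity genes 3 were called higher (21.4%) and 6 lower (42.9%). Of 26 markers of macrophages, lymphocytes, endothelium, fibroblasts and fat cells in the table, 8 were at 0 in all 6 libraries, the complement genes C1QA, C1QB and C1QC, AIF1, MS4A1, DCN, LUM and ADIPOQ. Another 10 stayed under 0.3 CPM, so that 18 markers were at or near 0. Of the 7 that were tested, 5 were called higher and 2 lower, against 22.2% and 19.6% of all tested genes. Their log2 fold changes ran from -1.74 to 2.15. Only 4 of them reached 1 CPM in DMSO ALDH1- cells, 3 called higher and 1 lower. The summed level of all 26 was 19.3 to 25.1 CPM in DMSO and 37.3 to 38.7 CPM in EPZ5676. Most of that sum was the collagen COL1A1, which went from 11.6 ± 2.61 to 23.2 ± 2.19 CPM (mean ± SD, n = 3, as in all values of this form).

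EPZ5676 moved a large share of the transcriptome of ALDH1+ cells. Of the 16327 genes tested, 6820 were called (41.8%), 3625 higher (22.2%) and 3195 lower (19.6%) in EPZ5676. The rises were larger than the falls. At least 2-fold changes were called for 1220 genes upward (7.47%) and 243 downward (1.49%), and at least 4-fold changes for 378 and 38. At least 8-fold, the counts were 124 and 8. The median log2 fold change was 0.65 among genes called higher and -0.36 among those called lower, against -0.01 over all genes tested. All 3 pairs had the direction of the fit in 3560 of the genes called higher and 3099 of those called lower. The typical size was similar in each pair, with a median difference of 0.62, 0.64 and 0.63 among genes called higher in pairs 1, 2 and 3 and of -0.36, -0.35 and -0.36 among genes called lower. The ranges of both groups did not overlap in 6756 genes (41.4% of those tested), which included 3150 of the genes called higher and 2539 of those called lower. With all libraries thinned to 24348594 counts, 6276 genes were called, and 6353 were called with all libraries numbered 3 left out. A fit of only the 6 ALDH1+ libraries tested 15784 genes and called 5349, of which 3045 were higher and 2304 lower.

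**Figure D1:**
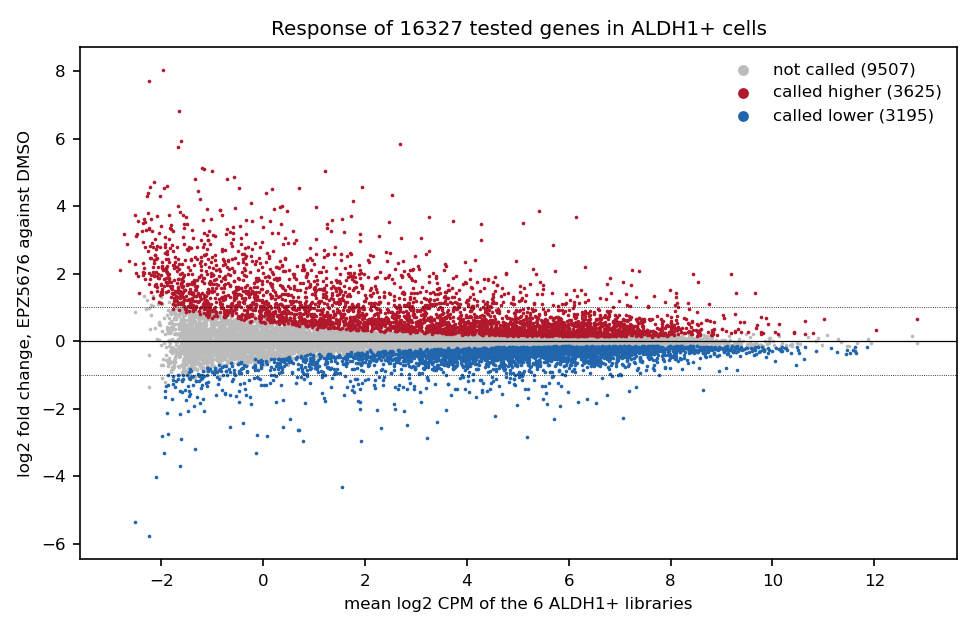
Log2 fold change of EPZ5676 against DMSO in ALDH1+ cells (vertical axis) against the mean log2 CPM of the 6 libraries (horizontal axis), 1 point per tested gene. Red points are the 3625 genes called higher, blue points the 3195 called lower, grey points were not called, and dotted lines mark 2-fold changes. Large rises crowd at low levels, while most calls at high levels lie within the dotted lines.

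Among genes at 1 CPM or more, the direction of the response went with the level of a gene in untreated cells. To keep the measure of level apart from the libraries compared, genes were ordered by their mean CPM in the 3 DMSO libraries of ALDH1- cells. Among 2508 genes at 100 CPM or more there, 16.3% were called higher and 31.2% lower in ALDH1+ cells, and 0.877% were at least 2-fold higher. Among 7175 genes from 10 to 100 CPM, the shares were 18.3% higher and 24.4% lower. Of 3682 genes from 1 to 10 CPM, 28.1% were higher, 14.2% lower and 9.91% at least 2-fold higher. In the 2850 genes from 0.1 to 1 CPM, 26.8% were higher and 4.81% lower. Part of this class passed the filter only through a group in which the gene was higher, so its shares are no measure of direction. The precision fell with the level too, with a median SE of 0.06 on the log2 scale in the highest class and 0.30 in the class from 0.1 to 1 CPM, so small changes were harder to call in scarce genes. A further 112 genes lay under 0.1 CPM, of which 104 were called higher, and this count had to be lopsided for the same reason. Protein-coding genes made up 12992 of the genes tested, with 24.1% higher and 21.9% lower. Among 1845 long noncoding RNAs, whose median level was 0.936 CPM, 17.8% were higher and 10.8% lower.

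Genes called higher lay next to each other on the chromosomes in places. Of all tested genes 22.2% were called higher and 19.6% lower, so some runs arise without any tie between neighbours. How many was not tested. With the tested genes put in chromosomal order, there were 91 runs of at least 4 neighbours all called higher, with 453 genes. Another 51 runs, with 230 genes, were all called lower. The longest held 15 genes on chromosome 1, all within the epidermal differentiation complex, a cluster of genes for the cornified envelope and calcium-binding S100 proteins of stratified epithelia. In order they were S100A11, TCHHL1, TCHH, FLG-AS1, FLG, IVL, SPRR1A, SPRR3, SPRR1B, SPRR2A, PRR9, PGLYRP4, S100A9, S100A12 and S100A8. Their log2 fold changes ran from 0.38 to 5.85 with a median of 1.84, and 66 genes of the table, 49 of them protein-coding, lie between the ends of the run, most below the filter. The calls of PGLYRP4 and S100A12 depended on single libraries: PGLYRP4 was not called when leaving out DMSO replicate 2 (adjusted p = 0.13) or EPZ5676 replicates 1 or 3 (0.083 and 0.074), nor was S100A12 without DMSO replicate 3 (0.079) or EPZ5676 replicate 2 (0.15), within ranges of 0.0068 to 0.13 and 0.0022 to 0.15 over all settings. Reads of FLG and its antisense gene FLG-AS1 may have been split between them, because the strand setting of the counting is not given.

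The promoters of 4 members are shown as the 250 bases before the transcription start, because 10 of the 14 run members in the promoter table carry the AP-1 motif TGANTCA in that window. AP-1 factors, dimers of FOS and JUN proteins, bind this motif and drive many cornified envelope genes in keratinocytes. The motif reads as itself on both strands. It occurred in 8.06% of 27305 genes of the promoter table, in 6.44% of 11345 tested genes, in 13.7% of 853 genes called at least 2-fold higher and in 18.3% of 142 called at least 2-fold lower. A match is only a description of the sequence. All 4 sequences are from RefSeq on build GRCh38.p14, plus strand, 5′ to 3′, with the motif in capitals: PRR9 at chr1:153217334-153217583, SPRR3 at chr1:153001499-153001748, SPRR1B at chr1:153030953-153031202 and IVL at chr1:152908296-152908545.
PRR9: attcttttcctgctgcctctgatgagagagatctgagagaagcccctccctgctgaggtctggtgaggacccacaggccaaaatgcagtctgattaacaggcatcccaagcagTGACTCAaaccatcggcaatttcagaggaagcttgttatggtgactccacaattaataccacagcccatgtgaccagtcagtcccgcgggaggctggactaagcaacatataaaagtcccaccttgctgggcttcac
SPRR3: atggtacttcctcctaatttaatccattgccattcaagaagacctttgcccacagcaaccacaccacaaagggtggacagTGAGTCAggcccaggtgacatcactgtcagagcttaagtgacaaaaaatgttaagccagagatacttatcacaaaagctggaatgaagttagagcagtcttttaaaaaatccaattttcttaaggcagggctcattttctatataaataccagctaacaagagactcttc
SPRR1B: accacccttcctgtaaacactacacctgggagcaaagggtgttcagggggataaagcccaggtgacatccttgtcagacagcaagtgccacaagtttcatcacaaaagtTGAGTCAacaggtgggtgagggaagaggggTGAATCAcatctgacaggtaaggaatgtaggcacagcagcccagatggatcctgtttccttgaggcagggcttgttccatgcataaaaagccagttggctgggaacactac
IVL: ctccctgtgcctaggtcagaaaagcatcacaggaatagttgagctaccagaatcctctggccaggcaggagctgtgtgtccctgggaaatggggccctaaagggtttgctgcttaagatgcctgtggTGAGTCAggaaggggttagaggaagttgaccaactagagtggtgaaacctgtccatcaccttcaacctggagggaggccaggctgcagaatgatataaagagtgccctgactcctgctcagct

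The 4 genes shown rose in every pair. PRR9, a proline-rich gene of the cluster, stood at 0.582, 1.47 and 0.602 CPM in DMSO and 51.2, 61.0 and 33.6 CPM in EPZ5676 (5.85, SE 0.22, adjusted p = 3.1e-11). Its motif begins 137 bases before the start. SPRR3, a cross-linked precursor of the cornified envelope, stood at 0.218, 0.478 and 0.425 CPM in DMSO and 12.3, 16.2 and 10.6 CPM in EPZ5676 (5.03, SE 0.19, adjusted p = 3.1e-11). All EPZ5676 libraries were far above all DMSO libraries in both genes, and in EPZ5676 replicate 3 was the lowest in both. SPRR1B, another envelope precursor and the carrier of a pair of motifs, went from 2.82 ± 0.186 to 12.6 ± 2.01 CPM (2.15, SE 0.12). Involucrin (IVL), the scaffold of the envelope, rose less, and stood at 7.60, 7.85 and 8.20 CPM in DMSO and 15.4, 17.2 and 19.2 CPM in EPZ5676 (1.13, SE 0.12). Filaggrin (FLG), which bundles keratin filaments, went from 209 ± 74.2 to 688 ± 78.8 CPM (1.76). The calprotectin subunits S100A8 and S100A9 rose to different degrees. S100A8 stood at 49.2, 73.2 and 55.7 CPM in DMSO and 203, 337 and 143 CPM in EPZ5676 (1.88, SE 0.14), whereas S100A9 went from 379 ± 29.5 to 570.3 ± 55.9 CPM (0.58, SE 0.09). The caspase CASP14, which processes filaggrin but lies on another chromosome, went the other way, and stood at 693, 709.6 and 592 CPM in DMSO and 221, 228 and 277 CPM in EPZ5676 (-1.46, SE 0.12, adjusted p = 6.5e-08).

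**Figure D2:**
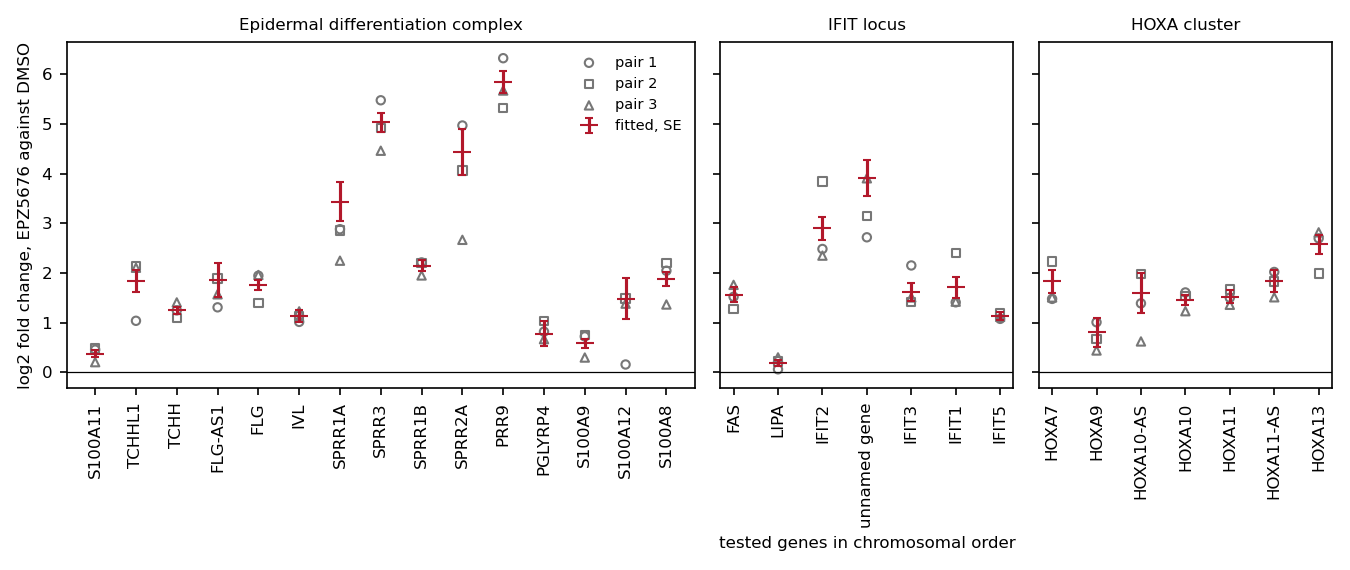
Log2 fold change of EPZ5676 against DMSO in ALDH1+ cells for the tested genes of 3 runs, in chromosomal order and evenly spaced. Grey symbols are the 3 replicate pairs (log2 CPM with a prior count of 2), red marks are the fitted value with its SE. All 15 genes of the epidermal differentiation complex run lie above 0, with the tallest values at SPRR3, SPRR2A and PRR9. Fitted values of genes near 0 counts exceed the pair values because the prior count pulls the latter toward 0.

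A run of 7 genes on chromosome 10 joined the death receptor FAS, the lipase LIPA and the interferon-induced IFIT genes. LIPA (0.19, SE 0.06) lost its call without DMSO replicate 2 or 3 (adjusted p = 0.057 and 0.15) and without EPZ5676 replicate 2 or 3 (0.11 and 0.056), within a range of 0.012 to 0.15. IFIT proteins bind foreign RNA and are induced through the interferon-stimulated response element, ISRE. IFIT2 stood at 0.546, 0.279 and 0.602 CPM in DMSO and 3.32, 4.78 and 3.30 CPM in EPZ5676 (2.90, SE 0.23, adjusted p = 5.6e-08), with every EPZ5676 library above every DMSO library. IFIT1 went from 0.591 ± 0.237 to 2.04 ± 0.355 CPM (1.71), IFIT3 from 1.99 ± 0.682 to 6.28 ± 0.679 CPM (1.62) and IFIT5 from 9.44 ± 0.590 to 20.6 ± 0.927 CPM (1.13). FAS stood at 1.42, 1.43 and 1.04 CPM in DMSO and 4.17, 3.56 and 3.67 CPM in EPZ5676 (1.56, SE 0.16). The 120 bases before the start are shown for the 3 IFIT genes in the promoter table. Each holds the ISRE core (GAAA, any pair of bases, GAAA) in more than 1 place, read here on the opposite strand and set in capitals. The core was searched on both strands of the 250 bases before the start, where it occurred in 3.71% of all genes in the promoter table, in 3.1% of tested genes, in 4.34% of those called at least 2-fold higher and in 2.82% of those called at least 2-fold lower. The sequences are from RefSeq, GRCh38.p14, plus strand: IFIT1 at chr10:89392503-89392622, IFIT3 at chr10:89332409-89332528 and IFIT5 at chr10:89414448-89414567.
IFIT1: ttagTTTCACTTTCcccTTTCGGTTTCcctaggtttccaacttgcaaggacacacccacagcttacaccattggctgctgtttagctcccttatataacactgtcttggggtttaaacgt
IFIT3: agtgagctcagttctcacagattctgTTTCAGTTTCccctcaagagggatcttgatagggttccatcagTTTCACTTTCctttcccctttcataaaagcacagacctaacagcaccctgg
IFIT5: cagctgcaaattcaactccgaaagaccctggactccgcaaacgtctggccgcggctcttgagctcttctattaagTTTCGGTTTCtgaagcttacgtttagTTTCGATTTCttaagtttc

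Other runs held receptors and homeobox genes. The longest after that of chromosome 1 held 10 genes on chromosome 22, from KCTD17 to CDC42EP1 (median 0.72). A run of 8 on chromosome 6, from ZFP57 to HLA-K, had a median of 1.17. On chromosome 2, 8 neighbours were called higher, among them the interleukin-1 receptor family genes IL1R2, IL1RL2, IL1RL1 and IL18R1. IL1RL1, the receptor of interleukin-33, stood at 4.73, 1.87 and 1.01 CPM in DMSO and 25.3, 15.4 and 5.999 CPM in EPZ5676 (2.65, SE 0.16, adjusted p = 2.3e-09). Replicate 1 was the highest and replicate 3 the lowest in both treatments, and each EPZ5676 library lay above every DMSO library. The decoy receptor IL1R2 went from 9.95 ± 1.83 to 21.4 ± 3.48 CPM (1.11, SE 0.10). On chromosome 7, a run of 7 held HOXA7, HOXA9, HOXA10, HOXA11, HOXA13 and a pair of antisense RNAs, with a median of 1.59. HOXA genes set positional identity, and HOXA9 is the classic target that DOT1L inhibitors lower in leukaemias with MLL fusions. Here HOXA10 stood at 4.002, 3.70 and 4.36 CPM in DMSO and 12.3, 10.8 and 10.3 CPM in EPZ5676 (1.45, SE 0.10, adjusted p = 9.7e-09) and HOXA13 at 0.837, 1.63 and 0.620 CPM in DMSO and 5.74, 6.66 and 4.72 CPM in EPZ5676 (2.57, SE 0.20). HOXA9 was barely expressed, at 0.255, 0.279 and 0.283 CPM in DMSO and 0.571, 0.476 and 0.404 CPM in EPZ5676 (0.80, SE 0.29, adjusted p = 0.034), and over 21 alternative settings its adjusted p ran from 0.031 to 0.18 with no change of sign. The call on HOXA9 was lost without any 1 of DMSO replicates 1, 2 and 3 (0.1, 0.085 and 0.089) and EPZ5676 replicates 1 and 2 (0.13 and 0.099). Homeobox runs went both ways. On chromosome 17 a run of 5 with HOXB6, HOXB7, HOXB9 and HOXB13 was higher (median 0.76). A run of 4 on chromosome 12, HOTAIR, HOXC11, HOXC-AS3 and HOXC10, was lower (median -0.73). So was a run of 5 on chromosome 16 that held IRX3, IRX5 and IRX6 (median -1.14). These 3 runs were picked after their values were seen. A run on chromosome 5 held the growth factor CSF2, which went from 0.0759 ± 0.0421 to 0.939 ± 0.406 CPM. The median log2 fold changes of the runs ranged from 0.26 to 2.29 (middle value 0.78) among runs called higher and from -1.8 to -0.21 (middle value -0.44) among runs called lower. The lowest, 5 genes on chromosome 11 from FDX1 to POU2AF1, which was picked after its values were seen, had a median of -1.8 and reached -3.21. The longest called lower, 8 genes on chromosome 19 from FBXW9 to RNASEH2A, ranged from -0.5 to -0.19, and runs made mostly of zinc finger genes had medians of -0.45 (7 genes on chromosome 7) and -0.5 (6 genes on chromosome 19).

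The 15 largest rises at a mean log2 CPM of at least 1, among called genes with all pairs in 1 direction and no overlap, began with PRR9 and SPRR3. GAD1, the enzyme that makes the transmitter GABA from glutamate, stood at 0.691, 0.836 and 0.726 CPM in DMSO and 20.7, 21.5 and 13.6 CPM in EPZ5676 (4.56, SE 0.14, adjusted p = 3.3e-12). GREM1, a secreted antagonist of bone morphogenetic proteins, went from 1.34 ± 0.543 to 26.1 ± 8.27 CPM (4.32, SE 0.19), and the secretory chaperone SCG5 from 0.812 ± 0.340 to 14.9 ± 6.04 CPM (4.17, SE 0.18). No DMSO library of these genes exceeded 1.91 CPM, and the lowest EPZ5676 value was 8.12 CPM, in SCG5. Fibronectin (FN1), the adhesive protein of the matrix, started at a higher level, at 12.7, 13.1 and 8.43 CPM in DMSO and 172, 184 and 131 CPM in EPZ5676 (3.85, SE 0.11, adjusted p = 2.4e-12). SERPINB2, an inhibitor of the plasminogen activator urokinase, stood at 13.1, 36.1 and 15.5 CPM in DMSO and 363, 388 and 117 CPM in EPZ5676 (3.68, SE 0.28, adjusted p = 3.1e-08). Its groups did not overlap, but DMSO replicate 2 was well above the other DMSO libraries and EPZ5676 replicate 3 well below the other EPZ5676 libraries. INHBA, a subunit of activin, stood at 10.99, 12.9 and 7.35 CPM in DMSO and 156, 146 and 66.6 CPM in EPZ5676 (3.51, SE 0.13). Others in the set were the protein cross-linking enzyme TGM2 (3.97), the ubiquitin ligase MARCHF4 (3.71), the mucin MUC16, known as the tumour antigen CA125 (3.68), the atypical cadherin FAT3 (3.62), SPOCD1 (3.58), the microtubule protein MAP1B (3.57) and the hormone PTHLH (3.54).

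The 15 largest falls ran from -4.31 to -1.93. ATP13A5, a transport ATPase of the P5 class, stood at 16.3, 9.12 and 13.2 CPM in DMSO and 0.606, 0.476 and 0.843 CPM in EPZ5676 (-4.31, SE 0.15, adjusted p = 2.2e-11). EN1, a homeobox factor of basal-like breast cancer, stood at 10.1, 9.00 and 11.5 CPM in DMSO and 1.35, 1.22 and 1.45 CPM in EPZ5676 (-2.95, SE 0.14). In both genes the 3 EPZ5676 libraries lay close together and far below DMSO. RARRES1, induced by retinoic acid, stood at 217, 278 and 408 CPM in DMSO and 54.4, 55.8 and 73.4 CPM in EPZ5676 (-2.27, SE 0.15), and AKR1B10, a reductase that acts on retinal, went from 50.8 ± 8.65 to 11.1 ± 3.39 CPM (-2.22, SE 0.12). TNFSF10, the death ligand TRAIL, went from 12.3 ± 3.06 to 2.03 ± 0.499 CPM (-2.58), and the hypoxia-induced carbonic anhydrase CA9 from 16.5 ± 0.964 to 3.07 ± 0.906 CPM (-2.49). Others in the set were C9orf152 (-2.86), the synaptotagmin SYT12 (-2.82), ELAPOR1 (-2.38), the histamine-degrading HNMT (-2.07), the interleukin-22 decoy receptor IL22RA2 (-2.04), OBP2B (-2.01) and the ligand WNT6 (-1.93).

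**Figure D3:**
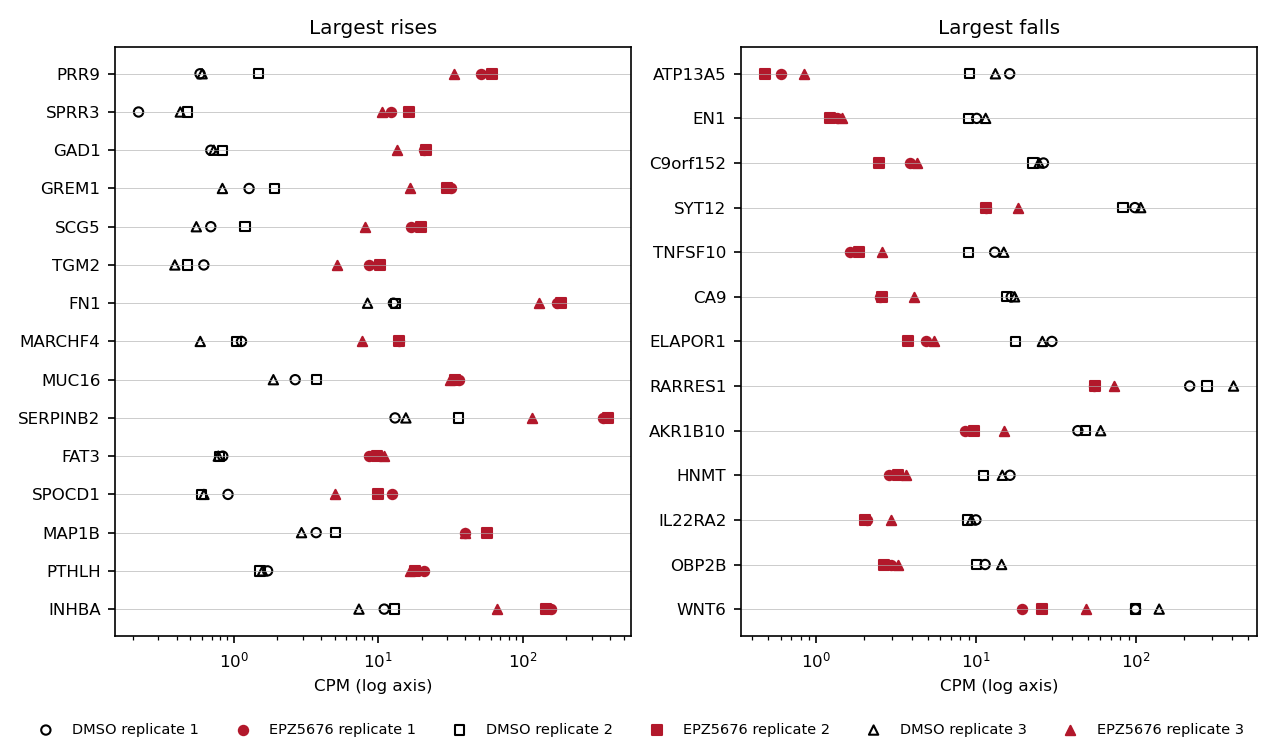
CPM in each of the 6 ALDH1+ libraries (log axis) for the 15 largest rises and 13 of the 15 largest falls that met the rule on level, direction and overlap. Open black symbols are DMSO, filled red symbols EPZ5676, and circles, squares and triangles are replicates 1, 2 and 3. In each row every red symbol lies on 1 side of every black symbol, and SERPINB2 has a wide spread within EPZ5676.

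Ranked by the change in CPM, which measures the share of reads and favours long and abundant transcripts, other genes came first. Among genes that met the same rule, EGFR gained the most, and stood at 6902, 6366 and 4598 CPM in DMSO and 10750, 8532 and 8435 CPM in EPZ5676 (0.65, SE 0.08, adjusted p = 1.3e-05). The wound-induced keratin KRT6A stood at 333, 374 and 199 CPM in DMSO and 1555, 1297 and 767 CPM in EPZ5676 (1.99, SE 0.08, adjusted p = 3.2e-11). Tissue factor (F3), the starter of blood clotting, went from 390.4 ± 103 to 1066 ± 346 CPM (1.43), and the matrix protein thrombospondin 1 (THBS1) from 501 ± 98.0 to 1342 ± 295 CPM (1.42). The actin-binding proteins FLNA (0.34) and TMSB4X (0.61), the annexin ANXA2 (0.65) and the calpain inhibitor CAST (0.73) were among the larger gains, with FLG. CD44, the hyaluronan receptor used as a stem cell marker, lost the most, and stood at 3641, 3367 and 3037 CPM in DMSO and 2882, 2339 and 2632 CPM in EPZ5676 (-0.35, SE 0.07, adjusted p = 0.00038). The luminal keratins KRT8 (-0.25, SE 0.06) and KRT19 (-0.31, SE 0.07), the glycolytic enzyme GAPDH (-0.30), the nuclear proteins PTMA (-0.69) and NPM1 (-0.25), the translation factor EIF4G2 (-0.37), the caspase CASP14 (-1.46) and the choline transporter SLC44A2 (-0.58) fell as well.

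Some genes went from near 0 to a measurable level. The mean was under 0.1 CPM in DMSO and at least 1 CPM in EPZ5676 in 13 genes, all called, and no gene did the reverse. Such genes passed the filter through their level in EPZ5676, so they had to differ. The reverse was open to the same filter and held 0 genes. CORO2B, an actin-binding coronin, stood at 0.0364, 0.0797 and 0.0354 CPM in DMSO and 1.89, 1.92 and 1.58 CPM in EPZ5676, and MUSK, the receptor kinase of the nerve-muscle synapse, at 0.0728, 0.0398 and 0.0354 CPM in DMSO and 1.18, 1.49 and 1.52 CPM in EPZ5676. CALB1, a calcium-binding protein of neurons, stood at 0.109, 0 and 0.159 CPM in DMSO and 1.46, 2.77 and 1.04 CPM in EPZ5676, and the adapter SH2D1B at 0.145, 0.0797 and 0.0531 CPM in DMSO and 3.71, 3.30 and 1.21 CPM in EPZ5676. The DMSO levels are those of a few reads per library, near the level of 3 counts, so their folds are imprecise.

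Genes of the matrix and of adhesion rose as groups. Of 44 collagen genes 24 were tested, 15 called higher and 1 lower, with a median log2 fold change of 0.73. Of 38 laminin and integrin genes 28 were tested, 19 called higher and 1 lower (median 0.63), and of 35 matrix glycoproteins 24 were tested, 16 higher and 3 lower (median 0.61). Because some members pass the filter only where they are high, the lists were also counted among genes of at least 1 CPM in DMSO ALDH1- cells, where 20.6% of all 13365 genes were higher and 22.9% lower. There 12 of 18 collagens, 17 of 24 laminins and integrins and 11 of 18 glycoproteins were higher, with list medians of 0.61, 0.63 and 0.35. Chains of the laminin that anchors epithelial cells to the basement membrane rose unequally. LAMA3 stood at 19.4, 22.3 and 16.5 CPM in DMSO and 135, 153 and 131 CPM in EPZ5676 (2.86, SE 0.09, adjusted p = 3.3e-12) and LAMB3 went from 187 ± 9.89 to 399 ± 50.2 CPM (1.08, SE 0.07). Its receptor subunit ITGB4 stood at 188, 206 and 176 CPM in DMSO and 413, 404 and 423 CPM in EPZ5676 (1.12, SE 0.07), and the collagen receptor subunit ITGA2 at 80.2, 84.8 and 56.5 CPM in DMSO and 329, 265 and 171 CPM in EPZ5676 (1.76, SE 0.12). The basement membrane collagens COL4A1 (2.36, SE 0.09) and COL4A2 (2.38, SE 0.09) rose by nearly the same factor, and the hemidesmosome collagen COL17A1 went from 0.688 ± 0.0311 to 4.76 ± 0.557 CPM (2.78, SE 0.17). The fibril collagen COL1A1, counted above among fibroblast markers, rose by 1.03 (SE 0.09), while the fibroblast genes DCN and LUM were at 0 in all 6 libraries. Of 25 tested genes of the actin cytoskeleton 13 were higher and 3 lower (median 0.28), with FLNC (2.58) and transgelin, TAGLN (1.58), among the higher.

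Keratins were called higher more often than lower. Of 28 tested, 16 were higher and 6 lower (median 0.35), against 22.2% and 19.6% of all tested genes. At 1 CPM or more in DMSO ALDH1- cells 12 of 23 were higher and 6 lower (median 0.21). KRT13, of the suprabasal layers of mucosa, stood at 1.85, 2.71 and 2.14 CPM in DMSO and 19.3, 21.1 and 15.9 CPM in EPZ5676 (3.05, SE 0.12, adjusted p = 3.1e-11), and KRT17, of basal and injured epithelium, went from 161 ± 37.7 to 368 ± 125 CPM (1.16, SE 0.13). KRT34 (2.61) and KRT80 (0.66) rose too. Members of the keratin family share sequence, so counts of close copies are uncertain. Of 20 tested clade B serpins, kallikreins and related protease inhibitors 13 were higher and 3 lower (median 0.50), including SERPINB7 (1.42), the tumour suppressor maspin, SERPINB5 (1.00), and KLK10 (1.11) upward and the elastase inhibitor PI3 (-1.42) downward. Vimentin (VIM), an intermediate filament of mesenchymal cells, stood at 75.8, 60.7 and 72.8 CPM in DMSO and 214, 199.5 and 156 CPM in EPZ5676 (1.43, SE 0.11), and E-cadherin (CDH1) at 120.3, 105 and 102 CPM in DMSO and 75.5, 68.5 and 79.7 CPM in EPZ5676 (-0.55, SE 0.08). Neither pair of ranges overlapped. The tight and adherens junction list as a whole was split, with 8 of 31 tested genes higher and 10 lower (median -0.09, and 4 to 5 higher without DMSO replicate 1 or EPZ5676 replicate 1 or 2), among them TJP3 (-1.58) and cingulin, CGN (0.99). Of 11 transcription factors of epithelial-mesenchymal transition 4 were tested, with FOXC1 higher (0.50) and TWIST2 lower (-1.09).

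Factors of squamous and luminal fate moved both ways, with 9 of 26 tested genes higher and 11 lower (median -0.03, and -0.13 without DMSO replicate 2). The shares over all tested genes were 22.2% higher and 19.6% lower. The luminal factor SPDEF stood at 145, 125 and 140.4 CPM in DMSO and 43.9, 33.7 and 39.8 CPM in EPZ5676 (-1.82, SE 0.08, adjusted p = 1.1e-10), and the pioneer factor FOXA1 at 50.4, 41.4 and 45.0 CPM in DMSO and 23.6, 19.5 and 26.7 CPM in EPZ5676 (-0.98, SE 0.09). In both, the EPZ5676 libraries were well below all DMSO libraries. KLF4, which drives late epidermal differentiation, stood at 38.5, 23.2 and 22.3 CPM in DMSO and 72.6, 58.2 and 47.7 CPM in EPZ5676 (1.11, SE 0.08), and PRDM1 at 9.86, 4.62 and 3.03 CPM in DMSO and 34.6, 16.8 and 9.23 CPM in EPZ5676 (1.76, SE 0.12). PRDM1 rose in each pair, but its ranges overlapped, because replicate 1 was the highest and replicate 3 the lowest in both treatments. ZNF750, another factor of epidermal differentiation, fell, from 14.1 ± 2.16 to 6.56 ± 2.17 CPM (-1.15, SE 0.12). Among 28 tested nuclear receptors 11 were higher and 7 lower (median 0.04). NR2F1, a receptor tied to dormancy of tumour cells, stood at 2.47, 2.27 and 2.34 CPM in DMSO and 9.63, 9.84 and 9.81 CPM in EPZ5676 (2.04, SE 0.11, adjusted p = 5.2e-10), its relative NR2F2 went from 9.69 ± 0.787 to 29.7 ± 3.23 CPM (1.61), RORA from 0.359 ± 0.170 to 1.81 ± 0.279 CPM (2.38), and the common partner RXRA from 55.0 ± 5.38 to 33.6 ± 0.606 CPM (-0.71).

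Immune signalling genes were called higher more often than lower, while 22.2% of all tested genes were called higher and 19.6% lower. Of 35 tested interferon-stimulated genes 21 were called higher and 4 lower (median 0.60). Of those at 1 CPM or more in DMSO ALDH1- cells 13 of 25 were higher and 3 lower (median 0.29). CMPK2, a mitochondrial nucleotide kinase, stood at 2.11, 2.07 and 2.16 CPM in DMSO and 8.06, 7.13 and 8.49 CPM in EPZ5676 (1.89, SE 0.11, adjusted p = 2.1e-09), and the ISG15 ligase HERC5 at 2.69, 3.19 and 3.04 CPM in DMSO and 11.3, 10.8 and 10.7 CPM in EPZ5676 (1.85, SE 0.13). Both had tight replicates in each group. Of 73 interleukin, chemokine and related cytokine genes 35 were tested, 22 higher and 5 lower (median 0.76). Only 18 reached 1 CPM in DMSO ALDH1- cells, of which 9 were higher and 4 lower (median 0.25). LIF, a cytokine of the interleukin-6 family, stood at 174, 127 and 104 CPM in DMSO and 346, 265 and 209 CPM in EPZ5676 (1.02, SE 0.09), and IL6 itself at 0.837, 0.478 and 0.336 CPM in DMSO and 4.99, 2.68 and 1.45 CPM in EPZ5676 (2.39, SE 0.19). The neutrophil attractant CXCL8 stood at 15.2, 11.3 and 8.55 CPM in DMSO and 71.4, 58.4 and 14.8 CPM in EPZ5676 (1.83, SE 0.21, adjusted p = 4.3e-06). Its ranges overlapped, with EPZ5676 replicate 3 below DMSO replicate 1. IL1RN, the natural antagonist of interleukin-1, went from 7.59 ± 0.977 to 22.8 ± 3.56 CPM (1.57, SE 0.10). The leukocyte markers among the 26 named above moved with these genes in part: CSF1R (0.74, to 8.79 CPM) and ITGAM (0.99, to 2.81 CPM) were higher, CD14 (-1.12) lower, and PTPRC, at 0.0728 to 0.708 CPM, was higher but lost its call without DMSO replicate 3 (adjusted p = 0.09, in a range of 0.00069 to 0.15). Their part in the result was not tested.

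Of 49 receptor tyrosine kinases 35 were tested, 17 higher and 7 lower, against 22.2% and 19.6% of all tested genes. Their median of 0.28 was 0.12 when DMSO replicate 3 was left out and 0.09 without all libraries numbered 3. AXL, the receptor of GAS6, stood at 3.02, 2.59 and 2.74 CPM in DMSO and 12.3, 9.53 and 10.0 CPM in EPZ5676 (1.90, SE 0.10, adjusted p = 7.7e-10), and RET, the receptor of GDNF family ligands, went from 0.481 ± 0.276 to 3.43 ± 0.437 CPM (2.87, SE 0.20). EPHB3, an ephrin receptor, fell, from 44.9 ± 4.54 to 21.0 ± 6.06 CPM (-1.13, SE 0.10). Among 18 tested genes of negative feedback on MAP kinases and their immediate targets, 10 were higher and 3 lower (median 0.27). PHLDA1 went from 102 ± 15.9 to 255 ± 54.6 CPM (1.31), the feedback inhibitors SPRY2 from 65.5 ± 6.94 to 110.0 ± 15.6 CPM (0.74) and DUSP6 from 36.7 ± 4.19 to 55.6 ± 1.01 CPM (0.61). The immediate early factor EGR1 went the other way, and stood at 206, 192 and 137 CPM in DMSO and 57.9, 48.2 and 42.5 CPM in EPZ5676 (-1.84, SE 0.16, adjusted p = 1.4e-07). AP-1 subunits were divided, with 7 of 16 higher and 5 lower (median 0.12), or 5 higher and 1 lower in a fit without the replicate block. Leaving out DMSO replicate 2 or EPZ5676 replicate 1 gave AP-1 medians of 0.04 and 0.06, and leaving out replicate 3 of either group gave 0.20. FOSL1 stood at 117, 120.5 and 64.5 CPM in DMSO and 270.1, 201 and 157 CPM in EPZ5676 (1.07, SE 0.09), with no overlap. FOS stood at 216, 93.8 and 80.9 CPM in DMSO and 104, 50.3 and 45.8 CPM in EPZ5676 (-0.93, SE 0.09, adjusted p = 2.9e-07), where the fall within each pair was smaller than the spread between replicates, and the call was lost without the block (adjusted p = 0.13, against a range of 1.3e-38 to 0.13 over all settings). FOSB (-0.73) and ATF3 (0.93) were also lost without it, at adjusted p = 0.33 and 0.21, each the highest over all settings (lowest 5.4e-24 and 5e-25). MAF rose from 0.132 ± 0.0588 to 1.14 ± 0.294 CPM (3.14, SE 0.33).

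Ion channel genes were mostly higher, against shares of 22.2% higher and 19.6% lower over all tested genes. Of 135 voltage-gated and related channel genes 47 were tested, 30 higher and 4 lower (median 0.66). At 1 CPM or more in DMSO ALDH1- cells 19 of 30 were higher and 3 lower (median 0.55). KCNQ5, a potassium channel subunit, stood at 4.15, 3.94 and 3.04 CPM in DMSO and 25.1, 22.2 and 19.99 CPM in EPZ5676 (2.60, SE 0.11, adjusted p = 5.1e-11), and the calcium-activated channel KCNMA1 went from 4.01 ± 0.625 to 11.1 ± 0.861 CPM (1.47). KCNK5, a leak channel, fell, from 40.2 ± 3.12 to 21.1 ± 4.87 CPM (-0.95, SE 0.08). Of 95 protocadherins and cadherins outside the junction list 40 were tested, 12 higher and 1 lower (median 0.32, and 0.20 without DMSO replicate 3). At 1 CPM or more in DMSO ALDH1- cells 7 of 19 were higher and 0 lower. Protocadherin genes share exons within each cluster, so their counts are uncertain. Axon guidance genes were mixed, with 19 of 42 tested higher and 10 lower (median 0.18, and 0.11 without EPZ5676 replicate 3). The secreted guidance cue SEMA3A went from 1.71 ± 0.484 to 5.23 ± 0.844 CPM (1.64) and the membrane ligand EFNB2 from 79.2 ± 5.73 to 147 ± 17.3 CPM (0.89), while the semaphorin SEMA3F fell from 74.8 ± 1.29 to 41.9 ± 3.56 CPM (-0.84) and the netrin receptor UNC5B from 34.9 ± 4.33 to 12.9 ± 4.12 CPM (-1.47).

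Sterol genes fell almost throughout, while 22.2% of all tested genes were called higher and 19.6% lower. All 25 listed targets of SREBP2, the transcription factor active when sterols are low, were tested, 22 called lower and 0 higher (median -0.64). The numbers over all alternative settings were 21 to 23 lower and 0 higher. DHCR7, the last enzyme of cholesterol synthesis, stood at 149, 139.6 and 150.1 CPM in DMSO and 68.4, 60.5 and 79.03 CPM in EPZ5676 (-1.08, SE 0.07, adjusted p = 9.4e-09). Squalene epoxidase (SQLE) stood at 39.2, 45.0 and 51.3 CPM in DMSO and 19.5, 19.1 and 23.9 CPM in EPZ5676 (-1.12, SE 0.08), and the sterol sensor INSIG1 went from 28.8 ± 4.85 to 12.97 ± 2.01 CPM (-1.15, SE 0.08). None of these ranges overlapped. Fatty acid genes controlled by SREBP1 had no common direction, with 7 of 22 higher and 7 lower (median 0.00). The desaturase SCD stood at 203, 176 and 181 CPM in DMSO and 69.4, 52.3 and 66.1 CPM in EPZ5676 (-1.58, SE 0.09, adjusted p = 2.1e-09), and SREBF1, which encodes SREBP1, went from 91.0 ± 12.8 to 49.7 ± 5.20 CPM (-0.88). The desaturases of polyunsaturated fats rose instead: FADS1 stood at 4.33, 7.17 and 4.99 CPM in DMSO and 18.4, 22.8 and 20.6 CPM in EPZ5676 (1.92, SE 0.11) and FADS2 went from 3.65 ± 0.210 to 11.1 ± 1.41 CPM (1.60). The elongase ELOVL6 stood at 6.77, 15.97 and 8.83 CPM in DMSO and 34.6, 40.0 and 29.3 CPM in EPZ5676 (1.77, SE 0.15). Oxidative phosphorylation genes had small falls, with 20 of 35 lower and 0 higher (median -0.23), including NDUFB10 (-0.39) and UQCRC2 (-0.30).

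Cell division genes fell together. Of 27 genes of chromosome segregation 25 were called lower and 0 higher (median -0.55), and 25 were lower under every alternative. CDK1, the kinase that starts mitosis, stood at 177, 205 and 279.6 CPM in DMSO and 104, 108 and 170.4 CPM in EPZ5676 (-0.80, SE 0.08, adjusted p = 5e-07), and topoisomerase TOP2A at 324, 382 and 510.1 CPM in DMSO and 187, 190.1 and 322 CPM in EPZ5676 (-0.82, SE 0.10). Replicate 3 was the highest in both treatments for both genes, and in CDK1 EPZ5676 replicate 3 lay close under DMSO replicate 1. AURKB, which corrects faulty attachments of chromosomes, went from 48.2 ± 10.8 to 25.4 ± 6.23 CPM (-0.94, SE 0.09). Targets of p53, which is mutant in this line, were mixed, with 9 of 24 tested higher and 4 lower (median 0.06, and 0.11 without DMSO replicate 3). Over all tested genes 22.2% were called higher and 19.6% lower. The cell cycle inhibitor CDKN1A (p21) stood at 44.8, 44.4 and 35.97 CPM in DMSO and 98.9, 95.2 and 76.9 CPM in EPZ5676 (1.12, SE 0.08, adjusted p = 1e-08), and TP53I3 went from 22.5 ± 0.374 to 57.7 ± 9.26 CPM (1.36), while CCNG1 (-0.64) and FDXR (-0.68) fell.

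Housekeeping lists differed in their share of calls, which was 41.8% over all tested genes. Of 30 proteasome subunits 1 was higher and 2 lower (median -0.06), and of 19 genes of the unfolded protein response 1 was higher and 2 lower (median 0.03). Of 27 ribosome biogenesis factors 1 was higher and 7 lower (median -0.01), including NOP56 (-0.29). Lysosomal genes had 5 of 30 higher and 10 lower (median -0.06), or 5 and 5 without the replicate block and 5 to 6 lower without DMSO or EPZ5676 replicate 1 or 2, and TFEB, the factor that drives them, went from 6.81 ± 0.384 to 14.5 ± 1.56 CPM (1.09, SE 0.10). Cytosolic aminoacyl-tRNA synthetases, which load amino acids onto tRNA, had 11 of 20 higher and 2 lower (median 0.18), with 6 higher when DMSO replicate 1 was left out and 5 without EPZ5676 replicate 2. GARS1 stood at 338, 336 and 331 CPM in DMSO and 527, 548 and 476 CPM in EPZ5676 (0.63, SE 0.10, adjusted p = 7.1e-05), and CARS1 went from 68.8 ± 0.779 to 99.0 ± 11.4 CPM (0.52).

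**Figure D4:**
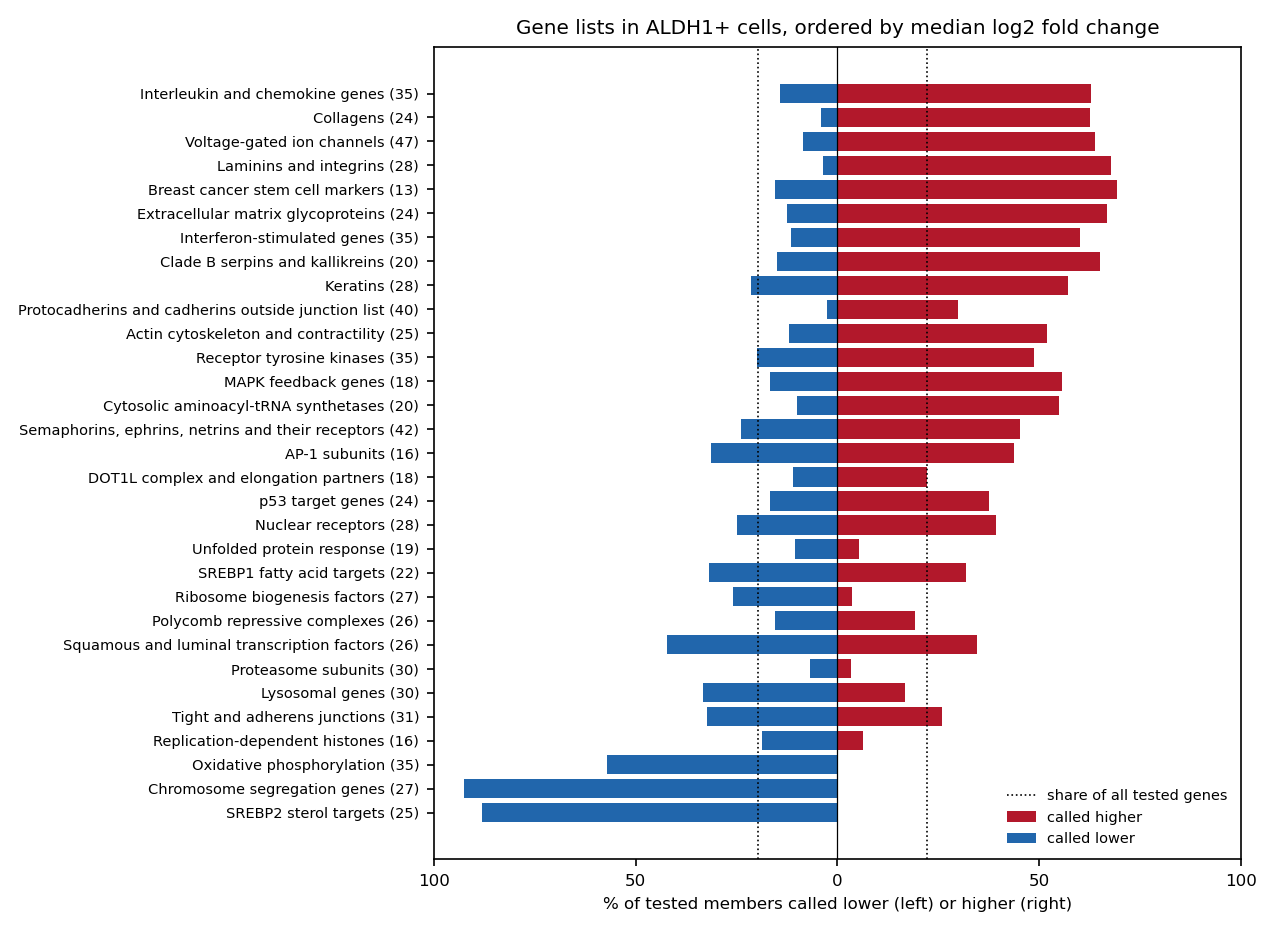
Share of the tested members of each gene list that were called higher (red, to the right) or lower (blue, to the left) in EPZ5676, ordered by the median log2 fold change of the list, with the number tested in brackets. Dotted lines mark the shares over all tested genes, 22.2% higher and 19.6% lower. Sterol, chromosome segregation and oxidative phosphorylation genes have no bar to the right, and matrix, channel and cytokine genes have mostly red bars.

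The chromatin machinery around DOT1L had shares of calls near or below those of all tested genes, 22.2% higher and 19.6% lower. Of 18 tested genes of the DOT1L complex and its elongation partners 4 were higher (22.2%) and 2 lower (11.1%), or 3 and 0 without the replicate block. Their log2 fold changes ran from -1.17 to 0.65, and 1 was called at least 2-fold lower. Over all alternative settings 0 to 3 of them were called lower. Their median of 0.10 was 0.01 without DMSO replicate 3 and 0.04 without EPZ5676 replicate 3. The elongation factor ELL2 stood at 178, 188 and 175 CPM in DMSO and 293, 279 and 278 CPM in EPZ5676 (0.65, SE 0.05, adjusted p = 1e-07), and SUPT5H went from 230.4 ± 16.5 to 278 ± 16.5 CPM (0.27). Of 26 subunits of the Polycomb repressive complexes, which silence HOX clusters, 5 were higher (19.2%) and 4 lower (15.4%). Their median was -0.03, and the counts were 4 and 2 without the block. The methyltransferase EZH2 stood at 182, 186 and 192 CPM in DMSO and 135, 149 and 159 CPM in EPZ5676 (-0.34, SE 0.06), and the PRC1 subunits CBX6 (0.54) and PCGF5 (0.42) rose.

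Transcripts tied to the sorted population did not move as 1 group. ALDH1A1 stood at 33.2, 27.9 and 38.3 CPM in DMSO and 12.8, 9.41 and 13.2 CPM in EPZ5676 (-1.50, SE 0.10, adjusted p = 5.7e-09), with every EPZ5676 library below every DMSO library. ALDH1A3, at far more reads, stood at 1596, 1864 and 1467 CPM in DMSO and 1984, 2058 and 1818 CPM in EPZ5676 (0.25, SE 0.07, adjusted p = 0.011). Its ranges overlapped, and it was not called when DMSO replicate 3 (adjusted p = 0.06) or EPZ5676 replicate 1 (0.059) was left out, within a range of 1.6e-05 to 0.06 over 22 settings. Of 13 tested markers of breast cancer stem cells 9 were higher and 2 lower (median 0.62), against 22.2% and 19.6% of all tested genes. Only 8 reached 1 CPM in DMSO ALDH1- cells, of which 6 were higher and 2 lower (median 0.42). At that level 20.6% of all genes were higher and 22.9% lower. Besides CD44, PROM1 (CD133) fell, and stood at 79.9, 65.9 and 73.8 CPM in DMSO and 37.4, 31.5 and 37.3 CPM in EPZ5676 (-1.05, SE 0.07). ITGA6 (CD49f) stood at 362, 356 and 299 CPM in DMSO and 579.9, 507 and 472 CPM in EPZ5676 (0.62, SE 0.06), ALCAM (CD166) went from 151.5 ± 4.84 to 238 ± 20.8 CPM (0.65), and nestin (NES) from 3.06 ± 0.235 to 7.61 ± 1.31 CPM (1.32). The drug efflux pump ABCB1 stood at 0.364, 0.319 and 0.230 CPM in DMSO and 2.32, 2.01 and 1.75 CPM in EPZ5676 (2.74, SE 0.25, adjusted p = 2.9e-07). PROCR went from 0.580 ± 0.128 to 1.88 ± 0.397 CPM (1.72). Genes as scarce as ABCB1 in DMSO can pass the filter only through a group in which they are high, which favours rises among them.

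The response of ALDH1+ cells was compared with that of ALDH1- cells, sorted from the same treatments with 3 libraries each. In ALDH1- cells 2837 genes were called higher (17.4%) and 2423 lower (14.8%). Both populations shared 2524 genes called higher, which is 69.6% of those in ALDH1+ and 89% of those in ALDH1- cells, and 1828 called lower, which is 57.2% and 75.4%. The median log2 fold change of the genes called higher in ALDH1+ cells was 0.65 there and 0.51 in ALDH1- cells, and of those called lower -0.36 and -0.26. These genes were chosen in ALDH1+ cells, so a larger median there is part of the choice. Genes called in ALDH1- cells had medians of 0.73 in ALDH1+ and 0.71 in ALDH1- cells when higher, and of -0.34 in both when lower. A test of the difference between the 2 responses called 0 of 16327 genes in edgeR (0%), the smallest adjusted p being 0.297, and 1463 genes (8.96%) had an unadjusted p under 0.05. The same test called 12 genes in DESeq2, 0 in limma-voom and 180 in edgeR with no filter on low counts. It called 13 genes without DMSO ALDH1- replicate 2, 2 without EPZ5676 ALDH1- replicate 3 and 17 without all libraries numbered 3.

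Some groups and genes had unlike values in the populations without a call on the difference. Chromosome segregation genes had a median of -0.55 in ALDH1+ and -0.18 in ALDH1- cells, and CDK1 had -0.80 and -0.23 (adjusted p of the difference 0.297). Aminoacyl-tRNA synthetases had medians of 0.18 and -0.04, and EGR1 had log2 fold changes of -1.84 and -0.85 (0.297). LAMA3 had 2.86 and 2.32 (0.297), and SPDEF -1.82 and -1.28 (0.297). CDK1, LAMA3, SPDEF and EFEMP1 were among the 12 genes whose difference DESeq2 called. Other large responses had close values in both populations, such as SERPINB2 (3.68 and 3.67), VIM (1.43 and 1.43) and CASP14 (-1.46 and -1.46). Sterol genes had medians of -0.64 and -0.51. Only 2 genes were called in opposite directions, and they are named here after their values were seen: EFEMP1, a matrix glycoprotein (-0.29 and 0.29), and ZDHHC11, a palmitoyltransferase (0.36 and -0.25), each with an adjusted p of the difference of 0.297 in edgeR. In DESeq2 the adjusted p was 0.0445 for EFEMP1 and 0.0505 for ZDHHC11. EFEMP1 was not called in ALDH1+ cells when leaving out DMSO replicate 1 (adjusted p = 0.12) or EPZ5676 replicates 1 or 2 (0.066 and 0.096), within a range of 0.0048 to 0.12.

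**Figure D5:**
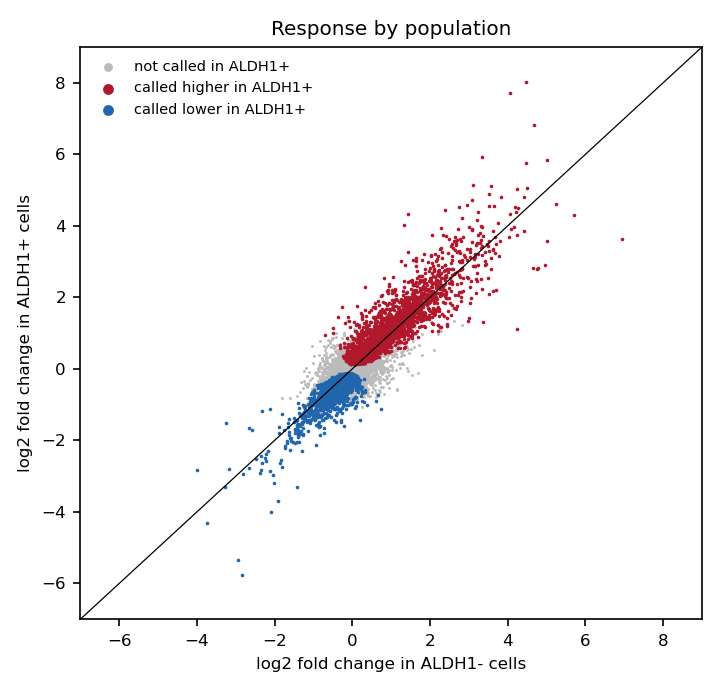
Log2 fold change of EPZ5676 against DMSO in ALDH1+ cells (vertical axis) against that in ALDH1- cells (horizontal axis), 1 point per tested gene, colored by the call in ALDH1+ cells. The line marks equal responses. Points spread along the line in both directions, and the test of the difference called 0 of the 16327 genes.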

How the data were processed

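RNA of the sorted cells was sequenced in 12 libraries, and the deposited table gives raw whole-number counts for each gene. Per the labels' protocols, libraries came from total RNA of high integrity with a directional kit. Per the submitters' processing notes, Trim Galore, STAR and build hg19 were used. The program that counted reads, whether it used strand, and its gene models were not given in the sources used here. No values of other units were used.

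Columns were matched to samples by treatment, population and replicate number. Identifiers were matched without their version to GENCODE v29, which gave 51959 of 57783 genes a symbol, 52301 a gene type, and the order of neighbours. It is a GRCh38 annotation and was used for names and order only, and promoters come from RefSeq. Genes that overlap or share sequence carry uncertain counts.

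The test was edgeR 4.0.16 in R 4.3.3, with filterByExpr by group, TMM scaling (factors 0.9746 to 1.021), and 1 quasi-likelihood fit of all 12 libraries with a term per group and the replicate number as a block (6 residual degrees of freedom, common coefficient of variation 6.57%). P-values were adjusted by Benjamini-Hochberg over 16327 genes. An SE is the absolute log2 fold change over the square root of F. The labels call the replicates biological without naming separate cultures, so p-values measure only the spread between these libraries. The numbers pair the libraries: over 12354 genes, deviations from group means correlated at 0.17 to 0.65 in all 18 pairs with the same number and at -0.66 to 0.22 in 36 with different numbers. In ALDH1+ cells the 3 same-number pairs had 0.29 to 0.51.

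Alternatives were a fit with no block, RLE scaling, total counts, other filters, DESeq2 1.42.0, voom in limma 3.58.1, only the ALDH1+ libraries, each library left out, number 3 left out, and equal depth. The count of list members at 1 CPM or more in DMSO ALDH1- cells was added after seeing the data. The scripts were tested on simulated data.

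The comparison, the gene lists and the rules were chosen with earlier results of these data known. Genes named were the targets of treatment and sort, the line's identity genes, the largest rises and falls in log2 fold change (15 each) and in CPM (10 each), genes from near 0 to expressed, up to 6 members with the smallest p per list, and members of the longest runs. IFIT1, LIPA, EFEMP1, ZDHHC11, HOTAIR and the HOXA, HOXB, HOXC and IRX genes are named outside this rule, after their values were seen. Some genes that the rule names are not reported here. Of 5 tested mucins and trefoil factors 2 were higher and 2 lower, of 16 tested replication-dependent histones 1 and 3, and of 14 tested identity genes 3 and 6. Over all tested genes 22.2% were called higher and 19.6% lower.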

Additional observations from a re-analysis of the deposited data

Results flagged for a closer look

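EFEMP1 and ZDHHC11 stood out because their responses had opposite signs in every replicate pair of both populations. EFEMP1, which encodes a matrix glycoprotein, was lower with EPZ5676 in all 3 pairs of ALDH1+ cells (mean 26.3 ± 2.33 to 21.6 ± 2.28 CPM, SD, n = 3) and higher in all 3 pairs of ALDH1- cells (mean 23.5 to 28.8 CPM). The difference between the 2 log2 fold changes was -0.58 (SE 0.13, adjusted p = 0.297). ZDHHC11 was higher in all 3 pairs of ALDH1+ cells (10.1 ± 1.17 to 12.98 ± 0.526 CPM) and lower in all 3 pairs of ALDH1- cells (mean 14.6 to 12.2 CPM), a difference of 0.61 (SE 0.13, adjusted p = 0.297). Neither difference passed edgeR's test over 16327 genes. In DESeq2, which called 12 genes, that of EFEMP1 passed (adjusted p = 0.0445) and that of ZDHHC11 did not (0.0505).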

How the results depend on the processing

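Over 22 alternatives the counts of genes higher and lower in ALDH1+ cells, and of those at least 2-fold higher or lower, stayed within 1.5 times of the reported values. The numbers called in all lay between 5141 and 6972, and genes higher made up 52.4 to 57.9% of calls. Without the replicate block 2903 genes were higher and 2238 lower, 1194 and 237 of them at least 2-fold, and 0 genes differed in response between the populations. Leaving out 1 library gave 3086 to 3698 genes higher, 2389 to 3274 lower, 1224 to 1301 at least 2-fold higher and 226 to 302 at least 2-fold lower. The count of genes whose response differs between ALDH1+ and ALDH1- cells was 0 as reported, 180 with no filter on low counts, 12 in DESeq2, 17 with number 3 left out of all groups, and 0 to 13 with 1 library left out (13 without DMSO ALDH1- replicate 2, 2 without EPZ5676 ALDH1- replicate 3). All 180 genes called with no filter were among the genes tested with it, and the cause was not tested. This comparison was not run on the 6 ALDH1+ libraries alone, which hold 1 population. Of 179 genes checked by name, 168 kept their direction and their side of the threshold in every alternative in which they were tested, and 36 of 3927 checks gave another verdict, 0 of them a change of sign. The genes with a change were ALDH1A3, ESR1, HOXA9, FOS, FOSB, ATF3, PTPRC, EFEMP1, PGLYRP4, S100A12 and LIPA, and the block changed the call of FOS, FOSB, ATF3 and LIPA. ESR1 was lower without EPZ5676 replicate 3 (adjusted p = 0.02) and without number 3 (0.024). Depth limits genes near 0.118 CPM, the level of 3 counts in the shallowest ALDH1+ library.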
